A study of Mus musculus with 36 samples.

Results

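The mouse major histocompatibility complex, called H2, was followed through RNA sequencing of the ligated left carotid artery of 129X1/SvJ (129X1) and C57BL/6J (B6) mice. Members were all gene symbols of the deposited count table that begin with H2-, 45 of 49568 symbols, and 31 of them had enough counts to be tested. They comprised the classical class I genes H2-K1 and H2-D1, 7 class II chain symbols, 5 class II accessory genes, and 8 Q region, 7 T region and 14 M region symbols. The class I pseudogene H2-K2 and H2-Ke6, which encodes a steroid dehydrogenase and no MHC chain, complete the 45.

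Each library came from the artery of 1 mouse, taken 14 days after the vessel was tied off, which halts its flow and is followed by remodelling of the wall. The 12 groups combined 2 strains, 3 treatments and 2 regimens, with 3 mice per group. Mice received a combination of sacubitril with valsartan (Sac/val) at 60 mg/kg/day, valsartan alone (Val) at 27 mg/kg/day, or vehicle at 2 mL/kg/day. Valsartan blocks the angiotensin II type 1 receptor and sacubitril inhibits the peptidase neprilysin. Therapeutic dosing began on day 7 after ligation and lasted 7 days, and prophylactic dosing began 2 days before ligation and lasted 16 days. All mice were ligated, and intact arteries were not analysed here. Per the labels, groups were formed by random division of the mice, which cannot hold for strain. Each library is 1 mouse, so p-values measure the spread between mice.

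Class I molecules pair with B2m and show peptides from inside the cell to CD8 T cells, on nearly every cell of the body. Class II molecules, assembled on the chaperone Cd74, show peptides from engulfed material to CD4 T cells and are made mainly by dendritic cells, macrophages, B cells and thymic epithelium. The Q, T and M regions hold class I genes of narrower use: some inhibit natural killer cells, some present bacterial or leader peptides, and some are read by γδ T cells.

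Upstream sequence is printed for 5 members on which the results turn, as RefSeq gives it for GRCm38.p6, 5′ to 3′ on the strand of the gene. H2-Eb1 and H2-Aa stand for the class II chains, H2-D1 and H2-K1 for classical class I, and H2-T3 is the member with the widest gap between strains. Capitals mark 3 short motifs, each searched on both strands. These are the X box core CAACNGATG and the Y box CTGATTGG, which bind the RFX and NF-Y factors of the class II promoter, and the κB core GGGATTCCC of the class I enhancer.
H2-Eb1, chr17:34305717-34305866, plus strand: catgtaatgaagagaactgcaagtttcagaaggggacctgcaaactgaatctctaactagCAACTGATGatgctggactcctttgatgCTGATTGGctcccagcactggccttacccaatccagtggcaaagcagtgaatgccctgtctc
H2-Aa, chr17:34287824-34287973, minus strand: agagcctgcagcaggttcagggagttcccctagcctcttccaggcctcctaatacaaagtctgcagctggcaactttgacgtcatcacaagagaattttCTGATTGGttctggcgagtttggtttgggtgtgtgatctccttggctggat
H2-D1, chr17:35262904-35263053, plus strand: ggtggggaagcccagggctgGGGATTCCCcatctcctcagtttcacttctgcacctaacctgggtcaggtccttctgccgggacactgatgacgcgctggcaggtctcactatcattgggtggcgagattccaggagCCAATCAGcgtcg
H2-K1, chr17:34000334-34000483, minus strand: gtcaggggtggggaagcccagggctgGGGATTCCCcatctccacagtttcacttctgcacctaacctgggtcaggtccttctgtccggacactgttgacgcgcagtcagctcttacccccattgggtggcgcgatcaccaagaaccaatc
H2-T3, chr17:36190152-36190301, minus strand: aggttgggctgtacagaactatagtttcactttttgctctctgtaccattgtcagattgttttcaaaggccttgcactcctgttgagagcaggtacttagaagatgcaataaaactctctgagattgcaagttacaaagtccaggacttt

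Each stretch is 150 bases long, and those of H2-Eb1, H2-Aa, H2-K1 and H2-T3 end at the last base before the start that RefSeq gives, while that of H2-D1 ends 41 bases before it. The GENCODE M21 annotation starts H2-T3 at 36190287, H2-K1 at 34000347 and H2-D1 at 35262730. By those starts the H2-D1 stretch, most of the H2-T3 stretch and the end of the H2-K1 stretch lie inside the gene, not upstream of it. No marked motif overlapped another. Over the whole 300-base windows, 32 of the 45 symbols had an entry. The Y box was present in 18 of the 32 H2 symbols with a window, against 4.1% of all 32851 windows. Of the 24 tested symbols with a window, 11 had it. H2-K1 is 1 of the 18, but its match does not lie within the printed stretch. The κB core was in 4 of the 32, against 0.353% of all windows. Those 4 were H2-D1, H2-K1, H2-Q6 and H2-Q7, 4 class I genes. A symbol was counted if any of its windows held the motif, while the percentages count single windows. The X box core was found in H2-Eb1 and H2-Eb2, and in 0.566% of all windows. None of the 3 motifs is in the printed H2-T3 stretch. The reference was assembled from B6, so these letters show no 129X1 allele.

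Levels are given as CPM, the counts of a gene per M counts of its library (M as in mega), scaled between libraries by TMM factors. H2 symbols together took 0.178% to 0.435% of the counts of a library. Per kilobase of exon, H2-D1 was highest with a median of 339 CPM per kb over the 36 libraries, ahead of H2-K1 with 221. The class II chains followed, H2-Eb1 at 122, H2-Ab1 at 102 and H2-Aa at 87.2 CPM per kb. H2-T23 (36.4), H2-Q4 (35.2) and H2-T22 (28.7) came next, and every other tested member had a median of 14.8 CPM per kb or less. Ranges over libraries overlapped between H2-D1 and H2-K1 (217 to 557 and 144 to 378 CPM per kb) and among the class II chains, so the order of neighbours is that of medians only. H2-Ea-ps, the E alpha gene that is defective in the B6 haplotype, had 0 counts in all 18 129X1 and all 18 B6 libraries.

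Of the 14 symbols that were not tested, H2-Ea-ps, H2-Pa and H2-M10.5-ps1 had 0 counts in all libraries. The others, H2-M1, H2-M6-ps, H2-M10.1 to H2-M10.6 without H2-M10.5-ps1, H2-M11, H2-Pb and H2-Q3, reached at most 13 counts in any library.

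The libraries held between 18.96 M and 28.97 M counts, with a median of 22.78 M. Vessel markers were present in every library, with 40.5 to 672 CPM of Myh11, a myosin of smooth muscle, and 155 to 273 CPM of the endothelial gene Pecam1. Libraries also differed in thymus transcripts. Rag1, the recombinase of developing lymphocytes, ran from 0.0411 to 1590 CPM, and the 16 libraries at or above 10 CPM are called thymus-containing here, 12 of 129X1 and 4 of B6. The thymic epithelial regulator Foxn1 was at 1.79 CPM or more in each of those 16, and at most 0.984 CPM in the others. Since the strains differ in this respect, strain calls of H2 genes and pathway lists are given with all libraries and without the thymus-containing ones. Fewer cells of a type and less RNA per cell cannot be told apart in such bulk samples.

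The strain comparison averaged 129X1 minus B6 over treatments and regimens, 18 libraries each. A gene was called at an adjusted p below 0.05 in edgeR's quasi-likelihood test, with Benjamini-Hochberg adjustment over all 18628 genes. Of the 31 H2 genes tested, 16 were called, 8 higher and 8 lower in 129X1. Reads of both strains were aligned to a reference built from B6, and whether 129X1 alleles of these polymorphic genes lost reads was not tested. The strains differed widely across the genome: 33.8% of all tested genes were called, 16.3% as higher and 17.5% as lower. The median log2 difference was -0.21 over the 31 H2 genes and -0.02 over all genes. No H2 gene separated the 18 libraries of 129X1 from the 18 of B6 completely, as 2.01% of all tested genes did. Without the thymus-containing libraries, 12 of 31 H2 genes were called, 4 higher and 8 lower in 129X1, with 20.3% of all genes called. That fit rests on 6 libraries of 129X1 and 14 of B6 and averages 5 of the combinations of treatment and regimen, since therapeutic Val in 129X1 had none left. Its 31 genes include H2-M11, which was not tested over all libraries, and leave out H2-Q1, whose counts were then too low.

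**Figure D1:**
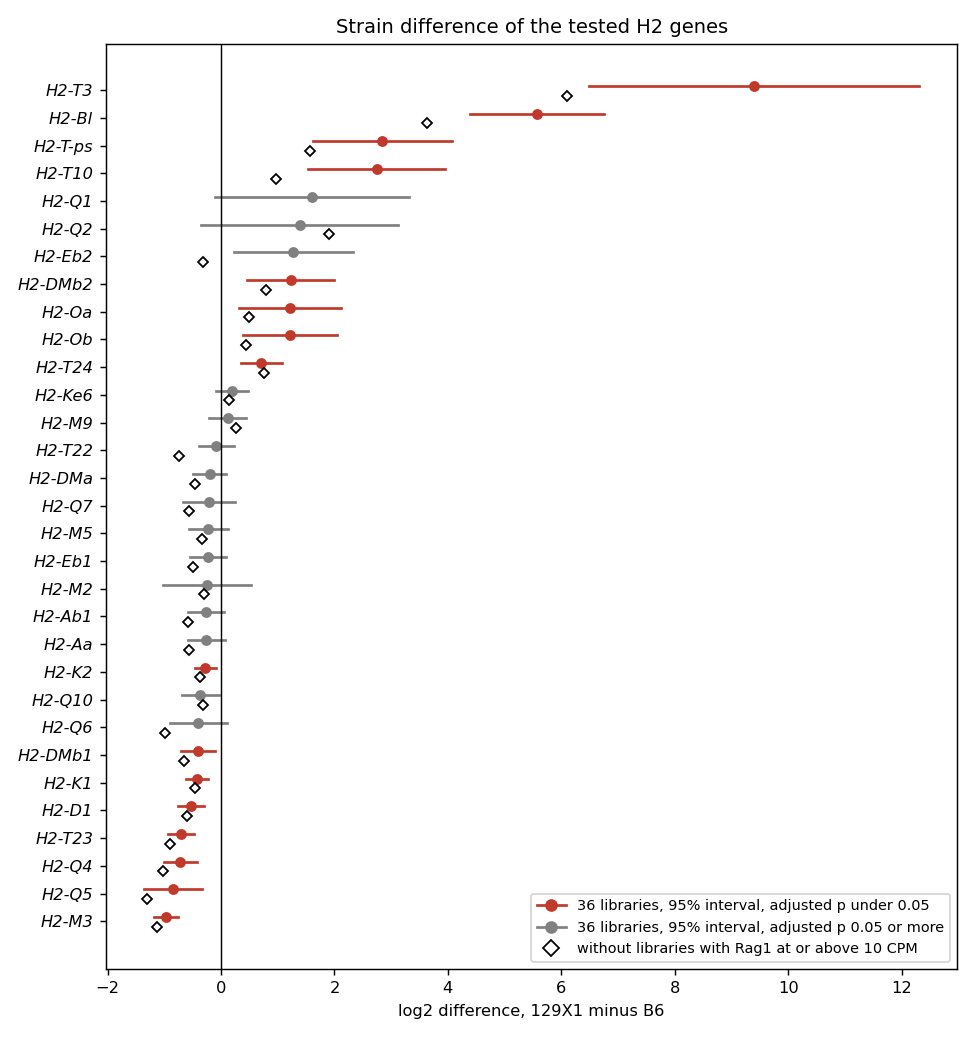
Strain difference of the 31 tested H2 genes, as log2 of 129X1 minus B6 on the horizontal axis, with 95% intervals over 36 libraries (circles) and the estimate without the 16 thymus-containing libraries (diamonds, none for H2-Q1). H2-T3 and H2-Bl lie far to the right, and the classical class I genes H2-D1 and H2-K1 lie on the lower side.

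Both classical class I genes were lower in 129X1. H2-D1 had a lowest, median and highest level of 558.8, 722.1 and 1072 CPM in 129X1, against 636.5, 1103 and 1438 CPM in B6. H2-K1 had 424, 552.8 and 837.5 CPM in 129X1, against 552.4, 734.9 and 1110 CPM in B6. The ranges overlapped for both genes, with the 129X1 median near the low end of the B6 range.

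The level of H2-D1 in 129X1 was 0.69 times that in B6 (log2 difference -0.53 ± 0.11 SE, edgeR adjusted p = 0.000541). That of H2-K1 was 0.748 times the B6 level (-0.42 ± 0.10, edgeR adjusted p = 0.00125). Without the thymus-containing libraries the differences were -0.60 for H2-D1 (edgeR adjusted p = 0.0183) and -0.46 for H2-K1, which then missed the threshold (edgeR adjusted p = 0.0593). The class I pseudogene H2-K2, next to H2-K1, was lower by a smaller step, at 0.824 times the B6 level (edgeR adjusted p = 0.018, and 0.0509 without those libraries).

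In B6, the 4 thymus-containing libraries had less H2-D1 than the others with no overlap, 636.5 to 879.9 CPM against 889 to 1438 CPM in the 14 others. In 129X1, H2-D1 ran from 558.8 to 1072 CPM in the 12 thymus-containing libraries and from 675 to 982 CPM in the 6 others. The summed level of 10 macrophage markers was also lower in those 4 B6 libraries, 776 to 3208 CPM, against 1879 to 6975 CPM in the 14 others. So was that of endothelial markers, 341 to 602 CPM against 572 to 824 CPM. Median sums were lower for smooth muscle (1120 against 1946 CPM) and dendritic cell markers (115.6 against 251.5 CPM). Those of the thymus, B cell, and mature T and NK cell lists were higher. Which of these goes with H2-D1 was not tested. With summary levels of the thymocyte, B cell and macrophage lists as covariates, the strain difference was -0.26 for H2-D1 (edgeR adjusted p = 0.0383) and -0.45 for H2-K1 (edgeR adjusted p = 0.00335), beside -0.53 and -0.42 without them.

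Of 14 class I processing genes, 6 were called, all lower in 129X1, beside 33.8% of all tested genes called and 17.5% called lower. B2m, the light chain of every class I molecule, had a median of 635.5 CPM in 129X1, against 969.7 CPM in B6 (log2 difference -0.59 ± 0.10, edgeR adjusted p = 3.89e-05). Tapbp, which bridges class I to the peptide transporter, fell by 0.48 on the log2 scale, and Pdia3, a disulfide isomerase of the loading complex, by 0.43. The proteasome subunit Psmb10 (-0.39) and the chaperone Canx (-0.17) were called too. The transporter subunit Tap1 (-0.39, edgeR adjusted p = 0.0512) and the proteasome subunit Psmb8 (-0.44, edgeR adjusted p = 0.0794) did not pass. The other transporter subunit, Tap2, did not pass either (-0.16, edgeR adjusted p = 0.412). The median over the 14 genes was -0.30. Outside the thymus-containing libraries 8 of the 14 were called, all lower, beside 20.3% of all genes called. Among them were B2m (-0.62), Tapbp (-0.45), Tap1 (-0.61) and Psmb8 (-0.82), while Canx was not called (-0.20, edgeR adjusted p = 0.122).

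Of 18 regulators of MHC genes, 6 were called, a share near the 33.8% of all tested genes, and all 6 were lower in 129X1. Nlrc5, the transactivator of class I genes, had a median of 12.2 CPM in 129X1, against 23.4 CPM in B6 (log2 difference -0.85 ± 0.15, edgeR adjusted p = 9.98e-05). Rfxank, a subunit of the RFX complex on X boxes, fell by 0.58, and the interferon-induced factor Irf1 by 0.37. The interferon gamma receptor chain Ifngr2 (-0.46) was lower as well. Ciita, the transactivator of class II genes, did not pass (0.22, edgeR adjusted p = 0.568). In the fit without thymus-containing libraries, 5 of the 18 were called lower and 1 higher, beside 20.3% of all genes called. Nlrc5 at -1.02, Rfxank at -0.49, Irf1 at -0.38 and Ifngr2 at -0.53 were among those lower.

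**Figure D2:**
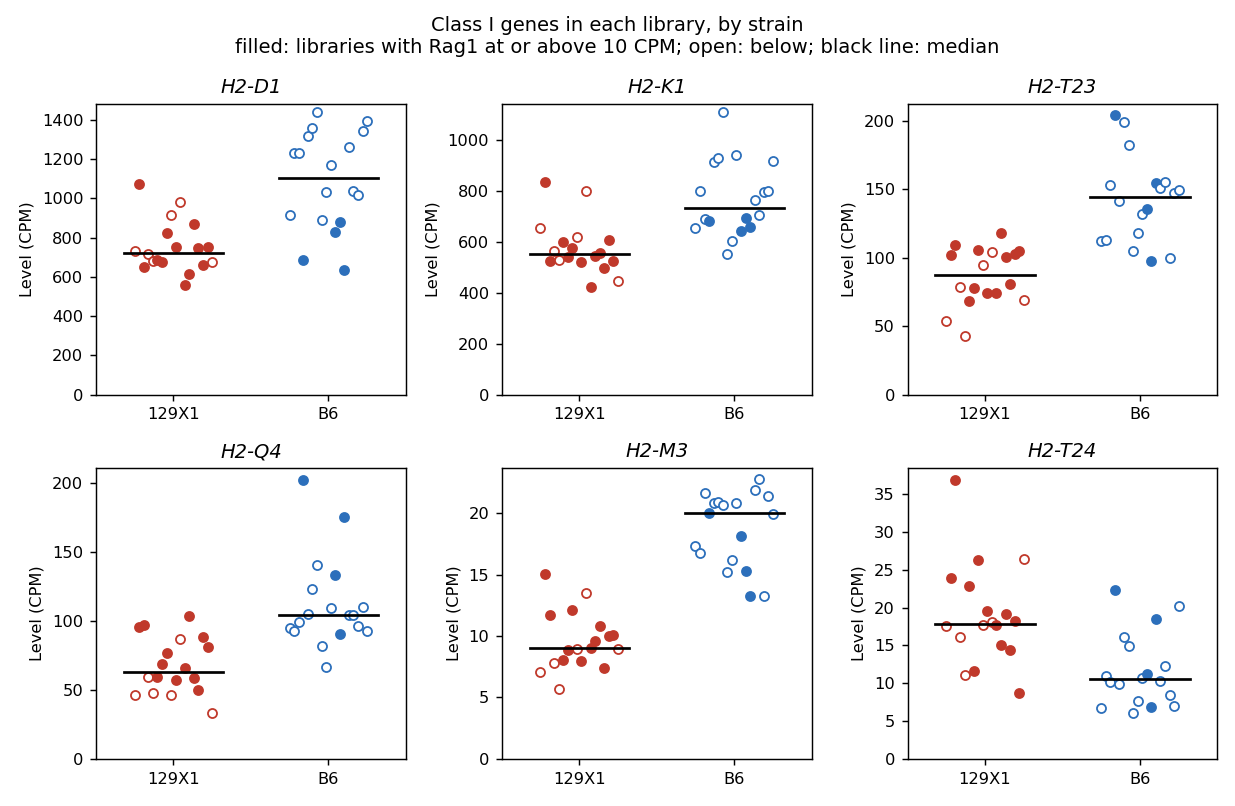
Levels of 6 class I genes in CPM for each of the 18 libraries of 129X1 and of B6, with the median as a black line and thymus-containing libraries filled. H2-M3 shows the clearest gap, with medians of 9.01 CPM in 129X1 and 20.0 CPM in B6, and H2-T24 is the gene in the plot that is higher in 129X1.

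H2-M3, which presents N-formylated bacterial peptides, had the smallest adjusted p among the genes lower in 129X1. It had a lowest, median and highest level of 5.68, 9.01 and 15.1 CPM in 129X1, against 13.3, 20.0 and 22.8 CPM in B6. The ranges overlapped, and the 129X1 median lay below the lowest B6 library. The level was 0.509 times that in B6 (95% interval 0.439 to 0.591, edgeR adjusted p = 3.59e-08), and the log2 difference was -0.97 ± 0.10 with all libraries and -1.13 without the thymus-containing ones (edgeR adjusted p = 0.000199). Of the other M region genes tested, H2-M2 (-0.25), H2-M5 (-0.22) and H2-M9 (0.12) did not pass. H2-M2 varied most among them within a strain, from 0.973 to 8.77 CPM in 129X1 and from 0.337 to 10.5 CPM in B6.

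Among 7 Q region genes tested, H2-Q4 and H2-Q5 were called, both lower in 129X1. H2-Q4 had a lowest, median and highest level of 33.2, 62.8 and 103.8 CPM in 129X1, against 66.4, 104.3 and 202 CPM in B6. H2-Q5, a polymorphic pseudogene in the reference annotation, had 1.42, 3.45 and 10.4 CPM in 129X1, against 3.98, 6.89 and 14.3 CPM in B6. For both genes the ranges overlapped, and the 129X1 median lay below the lowest B6 library.

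The log2 difference of H2-Q4 was -0.72 ± 0.14 (edgeR adjusted p = 0.000355) and that of H2-Q5 was -0.85 ± 0.25 (edgeR adjusted p = 0.00877). Without the thymus-containing libraries both were larger, -1.02 for H2-Q4 and -1.31 for H2-Q5. H2-Q6 and H2-Q7, genes of the Qa-2 antigen, were not called with all libraries (-0.40 and -0.21). H2-Q6 was called at -0.99 without the thymus-containing libraries (edgeR adjusted p = 0.019), where H2-Q7 was not (-0.56, edgeR adjusted p = 0.15). With all libraries and the 3 cell type covariates, both were called lower, H2-Q6 at -1.19 (edgeR adjusted p = 0.000235) and H2-Q7 at -0.93 (edgeR adjusted p = 0.00181). H2-Q4 then stood at -1.05 and H2-Q5 at -1.62.

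H2-Q6 and H2-Q7 counted together gave -0.30 (edgeR adjusted p = 0.328). Sequence shared between genes limits these values. Of the 50-base windows of H2-Q5 and H2-Q6, 36.4% and 32% also occur in another gene, in each case most often H2-Q7. H2-Q10, a secreted class I molecule known from liver, had a median of 39.1 CPM in 129X1 and 48.8 CPM in B6 and did not pass (-0.36, edgeR adjusted p = 0.0841).

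H2-T23 encodes Qa-1, the ligand of the natural killer receptor made of the Klrc1 and Klrd1 products. Its lowest, median and highest level was 42.9, 87.6 and 118 CPM in 129X1, against 97.2, 144 and 204 CPM in B6. The ranges overlapped, and the 129X1 median lay below the lowest B6 library. The level in 129X1 was 0.613 times that in B6 (log2 difference -0.71 ± 0.11, edgeR adjusted p = 1.41e-05), and the difference was -0.90 without the thymus-containing libraries (edgeR adjusted p = 0.00733).

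The receptor genes themselves were lower in 129X1 by more, Klrc1 by a log2 difference of -2.85 ± 0.50 and Klrd1 by -1.75 ± 0.27. Klrk1, an activating receptor for class I-like ligands, stood at -2.32 ± 0.35, and the inhibitory class I receptor Pirb at -0.91 ± 0.25. These 4 were the called genes of 9 receptors of MHC molecules, beside 33.8% of all tested genes called. The median over the 9 was -0.07. All 4 were called lower without the thymus-containing libraries too, Klrc1 at -2.37, Klrd1 at -2.37, Klrk1 at -3.24 and Pirb at -1.07, where the median over the 9 was -1.07.

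Of 7 T region genes, 5 were called higher in 129X1, H2-T23 was called lower and H2-T22 was not called. H2-T3, which encodes the thymus leukaemia antigen that binds CD8αα, had the largest fitted strain difference of the members tested. Its lowest, median and highest level was 0.134, 40.3 and 280 CPM in 129X1, against 0, 0 and 5.36 CPM in B6. Of the 18 B6 libraries, 11 had 0 counts, and no 129X1 library did.

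H2-T3 counts summed to 34511 in 129X1 and 263 in B6, a depth-adjusted ratio of 141 (95% interval 125 to 160, which covers counting error only). Mouse 1 of prophylactic Val in B6 held 129 of the 263 counts, and without it the ratio was 261 (220 to 311). The test across genes called it (edgeR adjusted p = 1.85e-05), and its fitted fold change is no bound, since 11 B6 libraries had no count. The gap was present on both sides of the Rag1 threshold. In thymus-containing libraries, 34361 counts in 12 libraries of 129X1 stood against 259 in 4 libraries of B6, a ratio of 45.6 (40.4 to 51.7). In the others, 150 counts in 6 libraries of 129X1 stood against 4 in 14 libraries of B6, a ratio of 98.8 (37.8 to 367). Of those 150 counts, 92 came from mouse 3 of prophylactic Sac/val, without which 58 counts and a ratio of 46.4 were left. Without mouse 3 of therapeutic Val in B6, which held 2 of the 4 counts, it was 184 (50 to 1530). The edgeR test without the thymus-containing libraries called the gene as well (adjusted p = 0.00299).

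**Figure D3:**
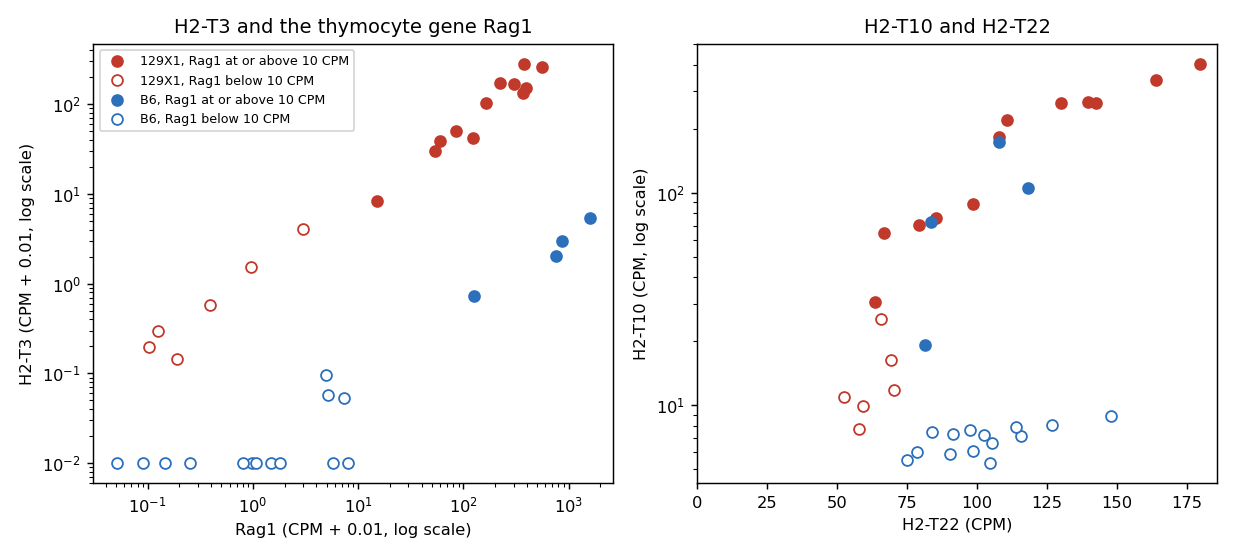
Left, H2-T3 against Rag1 in each library on log scales, in CPM plus 0.01, by strain and thymus content. Right, H2-T10 on a log scale against H2-T22, both in CPM. Among thymus-containing libraries H2-T3 runs from 8.35 to 280 CPM in 129X1 and from 0.721 to 5.36 CPM in B6, and H2-T10 is high in thymus-containing libraries of both strains.

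H2-T3 moved with Rag1 within each strain, at a different level in each. Per Rag1 count there were 0.343 to 0.766 H2-T3 counts in the 12 thymus-containing libraries of 129X1, and 0.0027 to 0.00572 in the 4 of B6. The H2-T3 level ran from 8.35 to 280 CPM in the thymus-containing libraries of 129X1 and from 0.721 to 5.36 CPM in those of B6. Rag1 ran from 15.1 to 558 CPM in these 129X1 libraries and from 126 to 1590 CPM in these B6 libraries, with overlap. In GENCODE M21 the gene lies on chromosome 17 from 36185572 to 36190287, and 0.894% of its 50-base windows occur elsewhere.

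H2-Bl, the blastocyst MHC gene and a polymorphic pseudogene in the reference annotation, also differed by more than an order of magnitude. It had a lowest, median and highest level of 0.232, 3.01 and 16.6 CPM in 129X1, against 0, 0.0629 and 0.38 CPM in B6. The highest B6 library lay within the low end of the 129X1 range. Summed counts gave a ratio of 53 (39.1 to 73.8) with all libraries, 35.5 (22.7 to 59) in thymus-containing libraries and 13.2 (8.36 to 21.6) in the others, and the edgeR adjusted p was 1.76e-08 with all libraries and 0.000379 without the thymus-containing ones.

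H2-T10 is a polymorphic pseudogene in the reference annotation, and its product is read by γδ T cells as that of H2-T22 is. The median level of H2-T10 was 73.5 CPM in 129X1 and 7.39 CPM in B6. The pseudogene H2-T-ps had 13.03 CPM in 129X1 and 1.36 CPM in B6. The log2 differences were 2.74 ± 0.59 and 2.84 ± 0.60 (edgeR adjusted p = 0.000732 and 0.000578). Both shrank without the thymus-containing libraries, to 0.98 and 1.57, and remained called (edgeR adjusted p = 0.000361 and 0.0308). With the cell type covariates they were 1.37 and 1.37 (edgeR adjusted p = 0.00242 and 0.0321).

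Within a strain, H2-T10 separated the libraries by thymus content. It ran from 30.7 to 404 CPM in the thymus-containing and from 7.74 to 25.5 CPM in the other libraries of 129X1. In B6 it ran from 19.2 to 173 CPM in the thymus-containing and from 5.33 to 8.84 CPM in the others. H2-T22 ran from 63.6 to 180 CPM in the thymus-containing and from 52.5 to 70.2 CPM in the other libraries of 129X1, and showed no such step in B6, with 81.2 to 118 CPM in the thymus-containing and 74.9 to 148 CPM in the other libraries. The difference of H2-T22 was -0.08 with all libraries (edgeR adjusted p = 0.728). Without the thymus-containing ones it was -0.74 and was called (edgeR adjusted p = 0.00552). H2-T10 shares 31.7% of its 50-base windows with H2-T22, so reads may have been counted for the other gene. Both summed gave 0.79 (edgeR adjusted p = 0.0349).

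H2-T24 was higher in 129X1 as well. It had a lowest, median and highest level of 8.76, 17.8 and 36.9 CPM in 129X1, against 6.04, 10.5 and 22.3 CPM in B6. The log2 difference was 0.71 ± 0.18 (edgeR adjusted p = 0.00269), and 0.75 without the thymus-containing libraries, where it missed the threshold (edgeR adjusted p = 0.0723). Among class I-like genes outside H2, Cd1d2, a lipid-presenting molecule, was higher in 129X1 with a median of 12.3 CPM against 0.14 CPM in B6 (5.00 ± 0.54). Its neighbour Cd1d1 was also called higher (0.40 ± 0.14) and the iron regulator Hfe lower (-0.78 ± 0.12). In all, 3 of 7 such genes were called, beside 33.8% of all tested genes. Cd1d2 and Hfe were also called without the thymus-containing libraries (6.57 and -0.81), and Cd1d1 was not (0.34, edgeR adjusted p = 0.368).

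The class II chains were not called between strains. H2-Aa had a lowest, median and highest level of 114.8, 288.3 and 532 CPM in 129X1, against 186.5, 349.1 and 612.9 CPM in B6. H2-Ab1 had 95.7, 236 and 431 CPM in 129X1, against 158, 287 and 487 CPM in B6. H2-Eb1 had 96.1, 221 and 405 CPM in 129X1, against 147, 262 and 460 CPM in B6. The ranges of each gene overlapped over most of their width, with the medians of 129X1 somewhat lower.

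The log2 differences were -0.26 for H2-Aa (95% interval -0.59 to 0.07), -0.26 for H2-Ab1 and -0.23 for H2-Eb1, with edgeR adjusted p of 0.222, 0.207 and 0.28. Without the thymus-containing libraries they were -0.57, -0.58 and -0.49, and none was called. The 3 chains kept nearly fixed proportions in all 36 libraries. H2-Ab1 had 0.747 to 1 counts per H2-Aa count and H2-Eb1 had 0.663 to 0.838. Cd74, the class II chaperone, had 1.69 to 2.09 counts per H2-Aa count, while H2-Aa itself varied from 114.8 to 612.9 CPM. Cd74 was not called (-0.18, edgeR adjusted p = 0.445).

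Of 8 class II processing genes, 3 were called, a share near the 33.8% of all tested genes. All 3 were lower in 129X1, and each is a lysosomal protease. Ctss had a median of 301 CPM in 129X1, against 768 CPM in B6 (log2 difference -1.25 ± 0.33, edgeR adjusted p = 0.00395). Lgmn had 185.2 CPM in 129X1 and 427 CPM in B6 (-1.001 ± 0.21, edgeR adjusted p = 0.000474), and Ctsl stood at -0.49. The protease Ctsb did not pass (-0.37, edgeR adjusted p = 0.0961). Ctss and Lgmn were also called without the thymus-containing libraries (-1.65 and -1.09), and Ctsl was not (-0.64, edgeR adjusted p = 0.142). Ctss and Lgmn are also abundant in macrophages. Of 10 macrophage markers, 7 were called, all lower in 129X1, beside 17.5% of all tested genes called lower. Their summed level was 807 to 4305 CPM in 129X1 and 776 to 6975 CPM in B6.

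**Figure D4:**
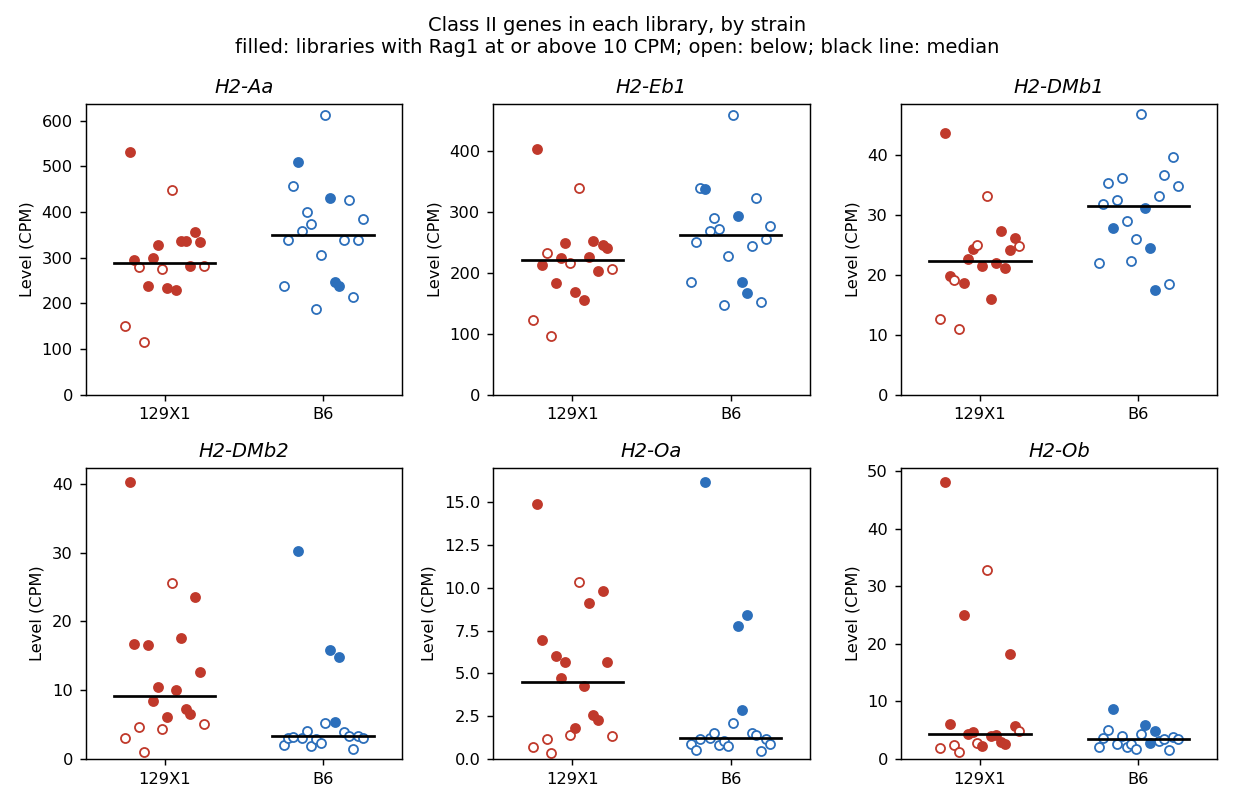
Levels of 6 class II genes in CPM for each of the 18 libraries of 129X1 and of B6, with the median as a black line and thymus-containing libraries filled. H2-Aa and H2-Eb1 overlap between strains, and H2-DMb2, H2-Oa and H2-Ob are high in a few libraries.

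Class II accessory genes split in direction. H2-DMa and H2-DMb1 encode the chains of DM, which exchanges class II peptides, and H2-DMb2 encodes another DM beta chain. H2-DMb1 had a lowest, median and highest level of 11.0, 22.3 and 43.7 CPM in 129X1, against 17.5, 31.4 and 46.8 CPM in B6, and was called lower (-0.41 ± 0.15, edgeR adjusted p = 0.0295). H2-DMb2 had 1.07, 9.21 and 40.4 CPM in 129X1, against 1.44, 3.27 and 30.3 CPM in B6, and was called higher (1.23 ± 0.37, edgeR adjusted p = 0.0119). H2-DMa was not called (-0.20, edgeR adjusted p = 0.304).

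Without the thymus-containing libraries H2-DMb1 stood at -0.66 and stayed called (edgeR adjusted p = 0.0317), and H2-DMb2 stood at 0.78 and was not (edgeR adjusted p = 0.0741). The call of H2-DMb1 was lost without any 1 of 5 libraries, with an edgeR adjusted p of at most 0.0575. In B6 these were mouse 3 of prophylactic vehicle, mouse 1 of therapeutic vehicle, mouse 3 of therapeutic Val and mouse 2 of therapeutic Sac/val, and in 129X1 mouse 3 of therapeutic vehicle.

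There were 0.0637 to 1.09 H2-DMb2 counts per H2-DMb1 count over the 36 libraries. In the 14 B6 libraries outside the thymus-containing set this ratio stayed between 0.0637 and 0.129, and in the 4 thymus-containing ones it was 0.217 to 1.09. H2-DMb1 and H2-DMb2 counted together did not differ between strains beyond error (-0.06, edgeR adjusted p = 0.834). About 21.2% of the windows of H2-DMb2 are shared with H2-DMb1.

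H2-Oa and H2-Ob encode DO, the inhibitor of DM in B cells and thymic epithelium. H2-Oa had a lowest, median and highest level of 0.358, 4.48 and 14.9 CPM in 129X1, against 0.48, 1.20 and 16.2 CPM in B6. H2-Ob had 1.12, 4.27 and 48.2 CPM in 129X1, against 1.49, 3.46 and 8.65 CPM in B6. Both ranges overlapped, and a few 129X1 libraries stood far above the rest in H2-Ob.

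Both genes were called higher in 129X1, H2-Oa by 1.22 ± 0.44 (edgeR adjusted p = 0.0316) and H2-Ob by 1.21 ± 0.40 (edgeR adjusted p = 0.0208). Neither call held without the thymus-containing libraries (0.49 and 0.45, edgeR adjusted p = 0.223 and 0.241). The call of H2-Ob was also lost without any of 3 single libraries of 129X1, mouse 2 of prophylactic vehicle, mouse 3 of prophylactic Val or mouse 2 of therapeutic vehicle, with a largest edgeR adjusted p of 0.0861. That of H2-Oa was lost in 7 of 36 such fits, up to an edgeR adjusted p of 0.0946. These left out the same 3 libraries, mouse 1 of therapeutic Val or of therapeutic Sac/val in 129X1, or mouse 2 or 3 of therapeutic Val in B6.

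The 4 libraries with the most H2-Ob were the 4 with the highest summed level of 8 B cell markers. In 129X1, H2-Ob was at 48.2 CPM beside 318 CPM of B cell markers in mouse 2 of prophylactic vehicle, and at 32.8 beside 215 CPM in mouse 2 of therapeutic vehicle. It was at 25 beside 164.2 CPM in mouse 3 of prophylactic Val, and at 18.2 beside 116.6 CPM in mouse 1 of therapeutic Sac/val. B cell markers summed to at most 28.5 CPM in every other library. Of the 8 markers, 7 were called higher in 129X1, beside 16.3% of all tested genes called higher. Outside the thymus-containing libraries the median of the sum was 4.36 CPM in 129X1 and 4.81 CPM in B6. With summary levels of the thymocyte, B cell and macrophage lists as covariates, the strain difference was -0.15 for H2-Ob and -0.14 for H2-Oa, neither called (edgeR adjusted p = 0.483 and 0.68).

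H2-Eb2, a class II beta gene, varied most among the class II chains, from 0.142 to 10.3 CPM in 129X1 and from 0.0838 to 9.69 CPM in B6. Its difference of 1.27 ± 0.51 missed the threshold (edgeR adjusted p = 0.0554) and stood at -0.32 without the thymus-containing libraries.

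Thymus content marked a subset of members in both strains. In 129X1, the 12 thymus-containing libraries all exceeded the 6 others in 3 of 31 genes, H2-T3, H2-T10 and H2-Q1, as they did in 1.46% of all tested genes. In B6, the 4 thymus-containing libraries all exceeded the 14 others in 7 of 31 genes, these 3 with H2-Q2, H2-T-ps, H2-DMb2 and H2-Oa, as they did in 8.84% of all tested genes. For H2-Q1 in 129X1 the margin was only 0.199 against 0.19 CPM, levels that rest on few counts. All these values describe libraries chosen by Rag1 and carry no test.

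H2-Q1 stood at 0.257 CPM or less in every library outside that set, and H2-Q2 reached higher. H2-Q1 ran from 0.199 to 5.56 CPM in the thymus-containing and from 0 to 0.19 CPM in the other libraries of 129X1. In B6 it ran from 1.15 to 15.3 CPM in the thymus-containing and from 0.0359 to 0.257 CPM in the others. H2-Q2 had a median of 29.8 CPM (3.28 to 66.6) in the thymus-containing and 3.49 CPM (0.142 to 5.55) in the other libraries of 129X1, with overlap. In B6 it had 80.3 CPM (22.6 to 156) in the thymus-containing and 0.309 CPM (0.0399 to 7.20) in the others, without overlap.

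Unlike H2-T3, H2-Q2 kept a like ratio to Rag1 in the thymus-containing libraries of both strains. Per Rag1 count there were 0.0871 to 0.217 H2-Q2 counts in the 12 thymus-containing libraries of 129X1 and 0.0799 to 0.18 in the 4 of B6. In the other libraries the ratio was not alike, with a median of 6.23 (0.375 to 48.5) in 129X1 and 0.163 (0.0811 to 57) in B6. H2-Aa, H2-Ab1 and H2-Eb1 differed little with thymus content, with medians in thymus-containing libraries between 0.913 and 1.21 times those of the others in either strain.

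With vehicle alone, 6 libraries per strain, 6 of 31 H2 genes were called, against 13.5% of all genes. H2-T3, H2-Bl, H2-T-ps, H2-T10 and H2-T24 were higher in 129X1 and H2-M3 was lower. H2-M3 differed by -0.78 ± 0.18 (edgeR adjusted p = 0.00476) and H2-T24 by 1.21 ± 0.31 (edgeR adjusted p = 0.00996). H2-D1 (-0.39, edgeR adjusted p = 0.175), H2-K1 (-0.24, edgeR adjusted p = 0.361) and H2-T23 (-0.52, edgeR adjusted p = 0.065) had the same sign as over all groups and did not pass.

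The drug comparisons asked whether Sac/val or Val shifted these genes, as means over both strains and regimens with 12 libraries per treatment. No H2 gene was called by edgeR in Sac/val minus vehicle, Val minus vehicle or Sac/val minus Val, where 0% of all genes were called. None of the 31 reached an unadjusted p below 0.05 in these 3 comparisons, beside 1.57%, 2.43% and 2.64% of all genes. DESeq2 called 0 H2 genes as well, beside 10, 2 and 17 of all genes.

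H2-D1 had a lowest, median and highest level of 661.1, 901 and 1438 CPM under Sac/val, 613.8, 731.8 and 1358 CPM under Val, and 558.8, 897.5 and 1232 CPM under vehicle. H2-K1 had 447.5, 605.8 and 1110 CPM under Sac/val, 498.6, 628.8 and 929.2 CPM under Val, and 424, 673.1 and 943 CPM under vehicle. H2-Aa had 186.5, 317.5 and 385.3 CPM under Sac/val, 114.8, 336.2 and 510 CPM under Val, and 149.7, 317 and 612.9 CPM under vehicle. The 3 treatments overlapped in each gene.

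**Figure D5:**
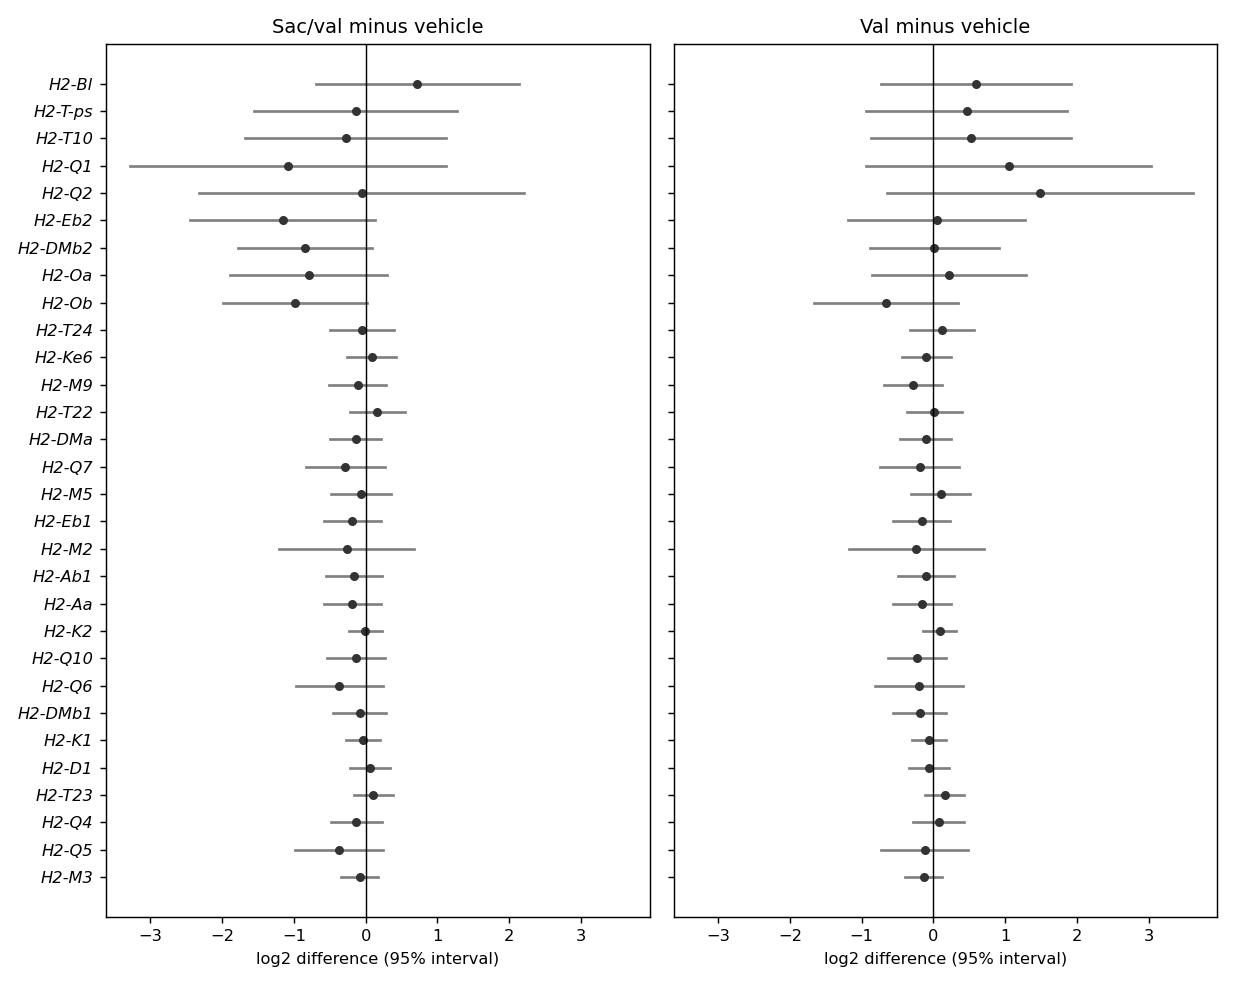
Log2 differences of Sac/val minus vehicle (left) and Val minus vehicle (right) with 95% intervals for 30 tested H2 genes, ordered by strain difference. All intervals shown include 0, those of H2-D1 and H2-K1 lie between -0.34 and 0.34, and H2-T3 is left out because its interval could not be fitted for Sac/val.

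For the classical genes the intervals were narrow. Sac/val minus vehicle was -0.04 for H2-K1 (95% interval -0.28 to 0.21) and 0.06 for H2-D1 (-0.22 to 0.34). Val minus vehicle was -0.06 for H2-K1 (-0.30 to 0.18) and -0.06 for H2-D1 (-0.34 to 0.22). The class II chain H2-Aa stood at -0.18 (-0.59 to 0.22) under Sac/val and -0.16 (-0.56 to 0.24) under Val, both minus vehicle. For genes tied to thymus or B cell content the intervals were wide, as for H2-Ob under Sac/val (-0.98, -1.99 to 0.02).

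Within the 4 combinations of strain and regimen, 8 comparisons of a drug with vehicle called no H2 gene in edgeR or DESeq2, and edgeR called 0% of all genes in each. In Val minus vehicle in prophylactic B6 mice, 6 of 31 H2 genes had an unadjusted p below 0.05, beside 10.5% of all genes. These 6 were H2-Q2, H2-Oa, H2-Q1, H2-DMb2, H2-T10 and H2-T-ps, all higher under Val, with edgeR adjusted p of 0.474 for each. That group holds the library with the most Rag1, 1590 CPM in mouse 1, and no vehicle mouse of prophylactic B6 was thymus-containing. The other 7 comparisons had 0 to 2 such genes, beside 0.542% to 4.17% of all genes.

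No H2 gene was called by edgeR or DESeq2 in the 7 interactions of strain, drug and regimen, where edgeR again called 0% of all genes. Up to 5 of 31 had an unadjusted p below 0.05, in the 3-way interaction of Val, beside 5.94% of all genes. The interaction of Val with strain had 4 of 31, beside 5.15% of all genes. Both contrasts include the prophylactic Val group of B6, with its library at 1590 CPM of Rag1. Therapeutic minus prophylactic also gave no call among H2 genes with either tool, with 0% of all genes called by edgeR. None of the 31 was below an unadjusted p of 0.05 there, beside 3.22% of all genes. H2-D1 had a median of 848 CPM in therapeutic and 901 CPM in prophylactic libraries, 18 each (-0.08, 95% interval -0.31 to 0.15), and H2-Aa had 336 CPM in therapeutic and 303 CPM in prophylactic libraries (0.12, -0.21 to 0.45).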

How the data were processed

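Per the submitters' processing notes, reads were trimmed with Trimmomatic 0.36, aligned with STAR 2.5.2b to GRCm38, a B6-derived reference, and counted with featureCounts of Subread 1.5.0p3. Strand setting, annotation release and handling of reads with several matches are not given in the sources used here, and the fit of 129X1 reads to the reference was not examined. The authors deposited raw counts per gene symbol. R 4.3.3 and edgeR 4.0.16 were used for filterByExpr over 12 groups, TMM and 1 quasi-likelihood fit of all 36 libraries (24 residual degrees of freedom). CPM used TMM-scaled totals, and 95% intervals and SEs came from the fit. The test was tried on simulated counts. Alternatives were DESeq2, its size factors, no filter, fewer libraries, covariates and summed copies. Members, gene lists and the thymus threshold were chosen with earlier results of these data known. Genes named were all H2 symbols, with B2m, Cd74, Ciita, Nlrc5, Tap1, Psmb8 and up to 4 called genes per pathway list by smallest p, of which 1 is not reported here. Shared windows and exon lengths used GENCODE M21. Intervals of summed counts cover counting error only.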

Additional observations from a re-analysis of the deposited data

How the results depend on the processing

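No paired analysis was possible because the animal numbers in the labels are unique to each mouse. The 16 H2 genes called between strains became 14 to 20 when each library was left out in turn, 16 with DESeq2 size factors, 17 with DESeq2 1.42.0, 16 without a filter, 17 with the animal number as covariate and 14 with thymocyte, B cell and macrophage scores as covariates. With near-identical copies summed there were 14, over fewer entries than 31. H2-Q6 was merged with H2-Q7, H2-T10 with H2-T22, and H2-DMb1 with H2-DMb2. The last pair, called in opposite directions when apart, was not called when merged (-0.06). The 6 under vehicle became 4 to 7 on leaving out libraries, 8 with DESeq2 and 3 without thymus-containing libraries. With the scores, H2-Oa (-0.14), H2-Ob (-0.15), H2-Q1 (-0.069), H2-Q2 (-0.49) and H2-Eb2 (-0.32) changed sign, as H2-Eb2 did without thymus-containing libraries (-0.32), H2-DMb1 and H2-DMb2 were no longer called, and H2-Q6 (-1.19) and H2-Q7 (-0.93) became called. Leaving libraries out of the summed count ratios, and pathway lists without thymus-containing libraries, were added after seeing the data. The cause was not tested. Counts for drugs, regimens and interactions were 0 in every fit made; those within strata and the interactions were not run in full without thymus-containing libraries, since 1 group had none left. Setting the Rag1 threshold at 1 or 100 CPM gave a median H2-T3 level of 103 or 158 CPM in 129X1, against 118 CPM at 10 CPM. Genes under about 1 CPM rest on few counts.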
